A study of Bos taurus with 2 samples.

Results

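TGF-beta, BMP and activin signalling was examined in the muzzle of HanWoo cattle as a list of 59 genes that encode the ligands, the proteins that store or block them, the receptors, the SMAD proteins and some direct targets. The members were chosen by gene symbol, and each was found on the arrays through the RefSeq accession of its probes. Of the 59 genes, 33 were matched, with 70 probes, among 9647 genes that carried a RefSeq symbol on the same arrays. The other 26 were not analysed here. They were TGFBR3, TGFBI, LTBP3, LTBP4, BMP1, BMP3, BMP5, BMP6, BMP7, BMPR2, GDF5, GDF11, GDF15, ACVR1B, NOG, CHRD, CHRDL1, NBL1, SMAD3, SMAD6, SMAD7, SMURF1, SMURF2, SKI, SKIL and ID4. The rule that picks the members uses no measured value, although the lists were chosen with earlier results of these data known.

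Ligands of the TGF-beta superfamily are secreted dimers that bind pairs of type I and type II serine/threonine kinase receptors at the cell surface. TGF-betas and activins act mainly through SMAD2 and SMAD3 and BMPs mainly through SMAD1, SMAD5 and SMAD9, and both arms share SMAD4. TGF-betas are secreted in a latent complex held in the matrix by LTBP proteins, while follistatin, gremlin, noggin and chordin bind activins or BMPs outside the cell. In skin these ligands are known for restraining keratinocyte growth, for the shaping of hair follicles and glands and for the control of matrix made by fibroblasts.

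RNA was taken from the front part of the muzzle of 1 cow with a light muzzle, labelled yellow (the light cow), and 1 with a dark muzzle, labelled black (the dark cow). Both animals were HanWoo (native Korean) females of 30 months, raised on the same farm and given no treatment that the labels state. The study picked each cow as the representative of its colour class. Each RNA was labelled with Cy3 and hybridised alone to 1 Agilent bovine array, and both arrays lay on the same slide, so the question that could be asked was how the members' levels differed between the muzzles of these animals. With 1 array per colour there was no replicate, no test was made, and cow, colour and array cannot be told apart.

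The level of a probe was the log2 of its processed intensity minus the log2 of the 75th percentile of its array, which was 1144 for the light cow and 1137 for the dark cow in intensity units. The log2 ratio was the level in the dark cow less that in the light cow, and a gene's ratio was the mean over its probes that were well above background in both cows. A probe well above background in 1 cow gave a lower bound. For this, the dim level was raised to the detection limit, the lowest level that was still well above background on that array (-5.78 on the log2 scale in the light and -5.81 in the dark cow), unless it was already higher. Some probes above this limit were still not well above background, so a bound depends on the limit chosen and on the processing. Feature Extraction's own error of the ratio, which covers the spot alone, lay between 0.20 and 0.35 on the log2 scale for the measured member probes. Well above background were 78.8% of noncontrol spots in the light and 81.9% in the dark cow, and 0 spots were saturated. Levels of different probes depend on the probe and were not read as a ranking of genes, although probes were ordered by brightness and marker levels were summed. In whole tissue fewer cells of a type and less RNA per cell cannot be told apart.

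Most members of the pathway had similar levels in both muzzles. INHA, the inhibin alpha subunit, and GDF10, a BMP-related ligand also called BMP3B, were at least 2-fold higher in the dark cow. ID2, a helix-loop-helix inhibitor of transcription factors and a known BMP target, TGFB3, a TGF-beta ligand, and LTBP2, a matrix protein of the latent TGF-beta binding family, were at least 2-fold lower. The other 28 genes lay within 2-fold or had only a lower bound under 2-fold. The members' share past 2-fold was thus 6.06% higher, against 9.86% of all 8914 genes with a ratio or bound, and 9.09% lower, against 6.47% of all genes. Counts of 2 and 3 genes lay close to these background shares. Over the 66 member probes with a ratio or bound, 4 were at least 2-fold higher (6.06%, against 10.5% of all probes with a symbol) and 7 at least 2-fold lower (10.6%, against 6.34%).

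**Figure D1:**
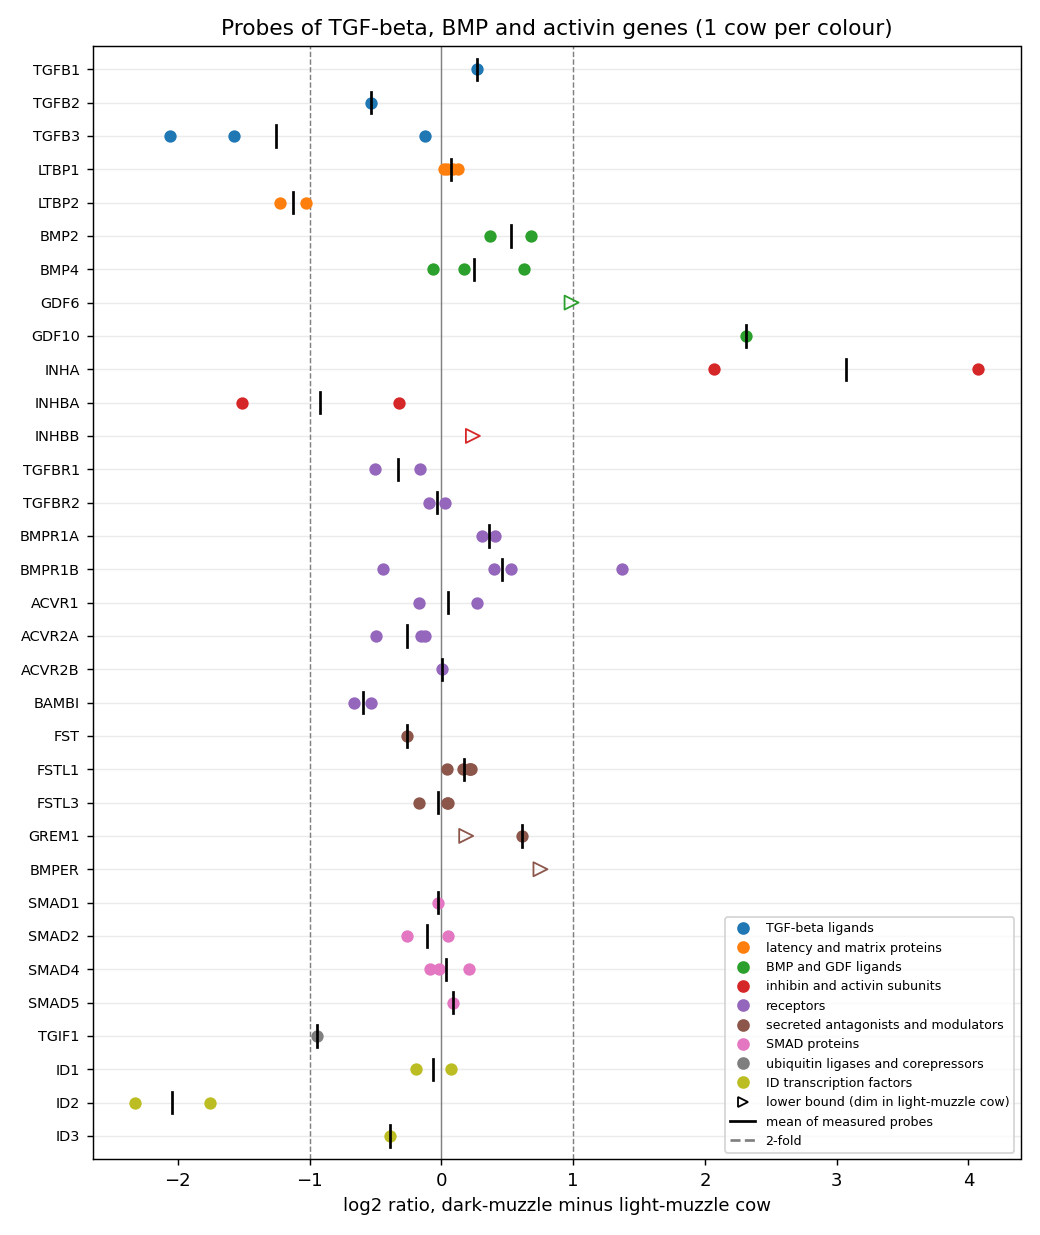
Log2 ratio (dark minus light cow) on the horizontal axis for each probe of the 33 genes, ordered and coloured by role. Filled points are probes measured in both cows, open triangles are lower bounds, short black bars are the mean of a gene's measured probes and dashed lines mark 2-fold. INHA (3.07) and GDF10 (2.32) lie to the right of the upper line and ID2 (-2.04), TGFB3 (-1.25) and LTBP2 (-1.13) to the left of the lower line.

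The median log2 ratio over the 33 members was 0.0082, beside 0.065 over all genes. Above 0 were 17 members and below it 16. Most of all genes also lay above 0, as their median of 0.065 shows. GDF6, BMPER and INHBB, which had upward bounds alone, could only count above 0. Over the measured members the median was -0.026, beside 0.055 over all measured genes. Within 0.3 of 0 lay 16 members (48.5%), beside 41.7% of all genes, and the median size of a ratio, regardless of sign, was 0.33 for members and 0.38 for all genes. All 33 genes had a ratio or a bound, 30 of them a measured ratio and 3 (GDF6, BMPER and INHBB) a lower bound alone. By probe, 62 of the 70 were measured in both cows, 4 had a bound and 4 were well above background in neither cow. Just under the 2-fold threshold were GDF6 with a bound of 0.99 and TGIF1 with a ratio of -0.94. LTBP2, at -1.13, lay nearest to it on the outer side.

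**Figure D2:**
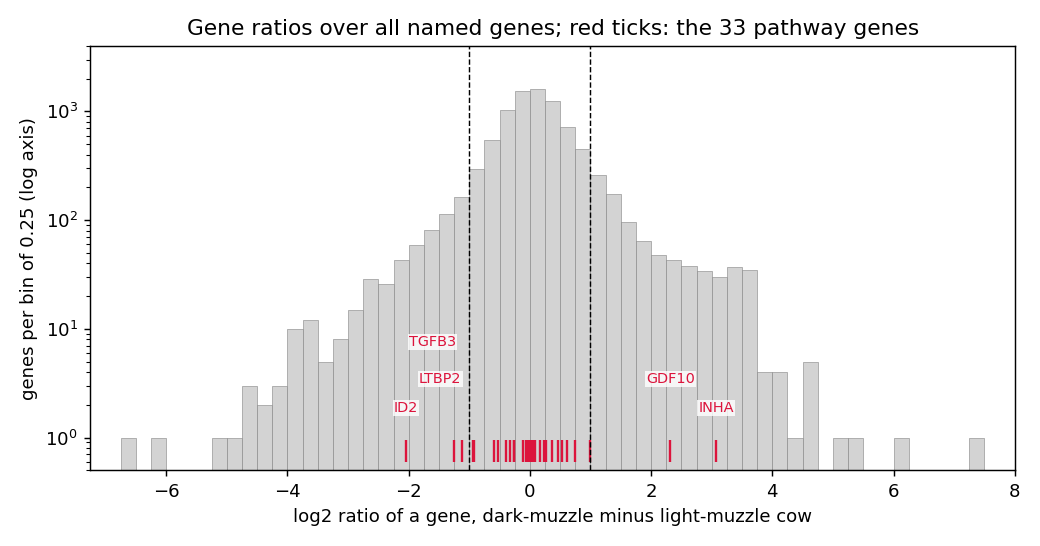
Histogram of gene log2 ratios (dark minus light cow) over all 8914 named genes in bins of 0.25, with the number of genes on a log axis, dashed lines at 2-fold and red ticks for the 33 pathway genes. The members' median of 0.0082 lies in the centre of the histogram, and the named ticks are the 5 members past 2-fold.

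Among the ligands named for the pathway, TGFB3 was lower in the dark cow while TGFB1 and TGFB2 lay within 2-fold. TGFB3 (RefSeq NM_001101183) had 3 probes. Its brightest probe read an intensity of 3047 in the light and 725 in the dark cow, a log2 ratio of -2.06 or 4.18-fold lower in the dark cow. The second read 450 and 150, a ratio of -1.58. The dimmest read 63.3 and 57.7, a ratio of -0.13, and so differed little between the cows although it was well above background in both. The gene ratio was -1.25 (2.39-fold lower, SD between probes 1.01, n = 3 probes), at place 412 from the lowest of 8914 genes, and only 3.73% of genes with several measured probes had an SD of 1 or more. TGFB2, an isoform of epithelial and neural development, read 2569 in the light and 1766 in the dark cow, a ratio of -0.53 on a single probe. TGFB1, the most widely studied isoform in wound repair and fibrosis, read 78.9 and 94.7 on its probe, a ratio of 0.27.

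The LTBP proteins with a value differed from each other. LTBP1, which anchors latent TGF-beta in the matrix, had 4 probes with ratios between 0.02 and 0.12 and a gene ratio of 0.07 (SD between probes 0.05). Its brightest probe read an intensity of 5042 in the light and 5093 in the dark cow. LTBP2 (NM_174385), an elastic fibre protein of the same family that does not bind latent TGF-beta, was lower in the dark cow on both of its probes. The brighter of these read 5390 in the light and 2292 in the dark cow, 2.34-fold lower. The dimmer read 644 and 314, 2.04-fold lower. The gene ratio was -1.13 (2.18-fold lower, SD between probes 0.14), at place 482 from the lowest, and it was -0.97 under normexp background correction, which is under 2-fold.

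The largest difference of any member was in an inhibin subunit. INHA pairs with a beta subunit to form inhibin, an activin antagonist best known from the ovary. INHA (NM_174094) had 2 probes, and both were higher in the dark cow. The brighter read an intensity of 290.6 in the light and 4869 in the dark cow, a log2 ratio of 4.08 or 16.9-fold. The dimmer read 92.2 and 385.6, a ratio of 2.07 or 4.21-fold. The probes thus had one direction and different sizes, and the gene ratio of 3.07 (8.42-fold, above 98.8% of the 8914 genes) had an SD between probes of 1.42, which ranked 81 among the 5363 genes with several measured probes.

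The beta subunits, which pair to form activins, gave a measured ratio for INHBA and only a lower bound for INHBB. INHBA (NM_174363), the subunit of activin A, was lower in the dark cow on both probes, though by unequal amounts. The brighter read 1859 in the light and 649 in the dark cow, a ratio of -1.51 or 2.85-fold lower. The dimmer read 264 and 210, a ratio of -0.32. The gene ratio was therefore -0.92 (SD between probes 0.84), under 2-fold, and -1.51 when the brightest probe alone stood for the gene. INHBB, the subunit of activin B, was near the detection limit. One of its probes read 10.6 in the light cow, not well above background, and 24.5 in the dark cow, a bound of 1.18-fold higher. Under quantile normalization no bound was left for INHBB. The other probe was well above background in neither cow.

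All 4 BMP and GDF ligands with a value had ratios or bounds above 0, although the upward bound of GDF6 could not have been below 0. Most of all genes also lay above 0 (median 0.065), and a list of 4 genes is too short to set apart from them. GDF10 (NM_001076167) read 31.6 in the light and 156 in the dark cow on its measured probe, a log2 ratio of 2.32 or 4.98-fold. Its second probe read 22.2 and 17.6 and was well above background in neither cow, so the gene ratio, at place 219 from the highest, rested on 1 dim probe. If the second probe was averaged in regardless of background, the gene ratio was 0.997, and under normexp background correction it was 1.20. GDF6, a ligand of joint and limb patterning also called BMP13, read 11.7 in the light cow, not well above background, and 41.1 in the dark cow. This gave a bound of 1.98-fold higher, or 0.99 on the log2 scale. The log2 bound of GDF6 was 0.67 under quantile normalization and 0.51 under normexp background correction. Its other probe was well above background in neither cow. BMP2, a ligand of bone, hair follicle and epidermal differentiation, had a gene ratio of 0.53, with probes at 0.37 and 0.68. BMP4, its close relative, had a gene ratio of 0.24, with 3 probes between -0.07 and 0.63. The 2 brighter probes of BMP4, at intensities of 845 and 843 in the light cow, had ratios of -0.07 and 0.17.

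**Figure D3:**
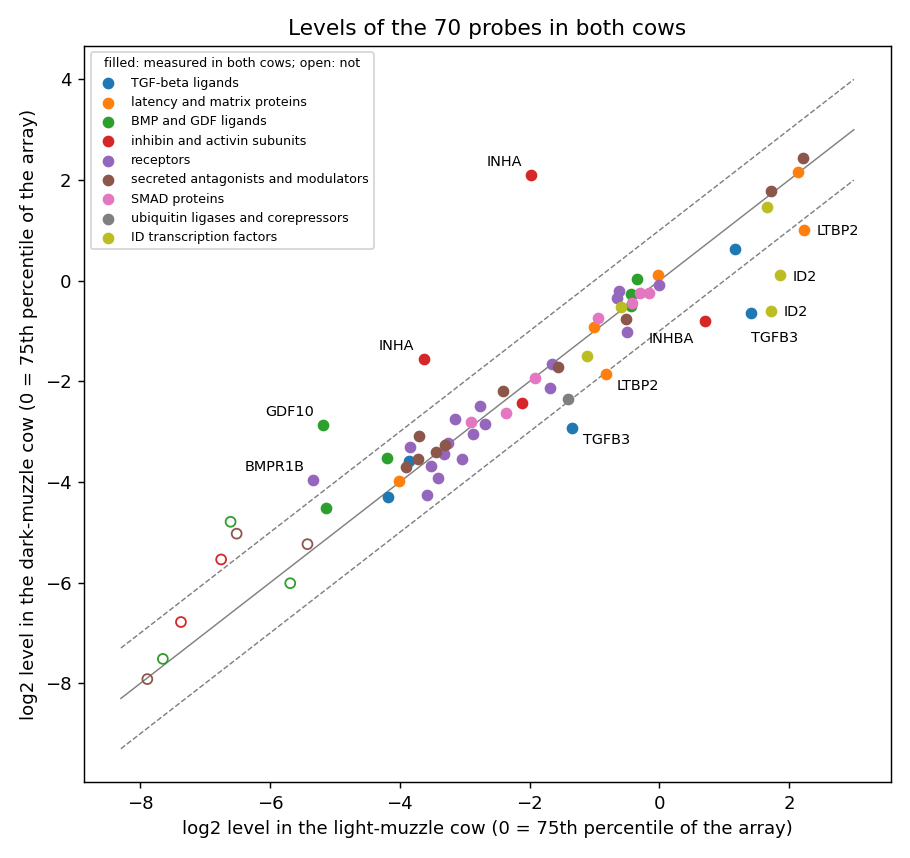
Log2 level of each of the 70 member probes in the light cow (horizontal axis) and the dark cow (vertical axis), where 0 is the 75th percentile of the array, coloured by role. Filled points are measured in both cows, open points are not, the solid line marks equal levels, dashed lines mark 2-fold, and the probes measured past 2-fold are named, with INHA furthest above the line (-1.98 and 2.10) and ID2 furthest below it (1.72 and -0.60).

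None of the 8 receptors passed 2-fold, beside 9.86% of all genes higher and 6.47% lower, and their median log2 ratio was -0.01. A list of 8 genes is too short to set apart from these shares. TGFBR2, the type II receptor of TGF-beta, read an intensity of 1142 in the light and 1066 in the dark cow on its brighter probe and had a gene ratio of -0.03. TGFBR1, its type I partner, had a gene ratio of -0.33 (probes at -0.50 and -0.16). Among type I receptors of BMPs and activins, BMPR1A had a gene ratio of 0.36 and ACVR1 of 0.05. The type II activin receptors ACVR2A and ACVR2B had ratios of -0.26 and 0.01. BAMBI, a decoy receptor without a kinase domain that dampens TGF-beta signalling, had the lowest ratio of the group, -0.60, with probes at -0.66 and -0.53.

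BMPR1B, a type I BMP receptor, was the receptor whose probes differed most. Its 4 probes read 357 and 261, 129 and 169, 80.1 and 115, and 28.4 and 72.8 in the light and the dark cow. The log2 ratios of these probes were -0.44, 0.40, 0.53 and 1.37 in the same order. The brightest probe was thus lower and the dimmest 2.58-fold higher in the dark cow, and the gene ratio of 0.46 had an SD between probes of 0.74. No direction was read from it, since the ratio was -0.44 when the brightest probe stood for the gene.

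The 4 secreted antagonists and modulators with a measured ratio lay within 2-fold, and BMPER had only a lower bound. FST, or follistatin, which binds activin, read 805 in the light and 667 in the dark cow on its single probe, a ratio of -0.26. FSTL3, a follistatin-like activin binder, had a gene ratio of -0.03 over 3 probes. FSTL1, a secreted glycoprotein of mesenchymal cells with a follistatin-like domain, had a gene ratio of 0.17 over 5 probes with an SD between probes of 0.07, and its brightest probe read 5293 and 6136. GREM1, or gremlin, a BMP antagonist, read 88.0 and 133.5 on its measured probe, a ratio of 0.61, and had a bound of 0.19 on the other. BMPER, an extracellular modulator of BMPs, read 12.5 in the light cow, not well above background, and 34.9 in the dark cow, a bound of 1.68-fold higher. Its log2 bound of 0.75 was 0.40 under quantile normalization and 0.17 under normexp background correction. The other probe of BMPER was well above background in neither cow.

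The SMAD proteins, which carry the signal from the receptors to the nucleus, had the narrowest range of any role with more than 2 genes. The gene ratios of the 4 SMAD proteins among the members lay between -0.11 and 0.09. SMAD9, which was outside the member list, had a ratio of 0.30 on 1 probe. SMAD1, a BMP-arm SMAD, read 859 in the light and 839 in the dark cow, a ratio of -0.03. SMAD5, of the same arm, had a ratio of 0.09. SMAD2, of the TGF-beta and activin arm, had a ratio of -0.11, and the shared SMAD4 a ratio of 0.04 over 3 probes. TGIF1, a homeodomain corepressor of SMAD2 and SMAD3 targets, read 429 and 222 on its single probe, a ratio of -0.94 or 1.92-fold lower in the dark cow. It was the only gene of the ubiquitin ligases and corepressors that was matched.

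Of the ID genes, which are induced by BMPs in many cells and whose proteins block helix-loop-helix transcription factors, ID2 alone passed 2-fold. ID2 (NM_001034231) was lower in the dark cow on both probes. One probe read an intensity of 4164 in the light and 1223 in the dark cow, a log2 ratio of -1.76 or 3.38-fold lower. The other read 3779 and 749, a ratio of -2.33 or 5.02-fold lower. The gene ratio was -2.04 (4.12-fold lower, SD between probes 0.40), at place 151 from the lowest of 8914 genes. Both probes were well above background in both cows. ID1, by contrast, read 3622 and 3145 on its brighter probe and had a gene ratio of -0.06 (probes at -0.19 and 0.07). ID3 read 529 and 401 on its single probe, a ratio of -0.39.

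The SD between probes describes how alike different probes of 1 gene read the same 2 RNAs. It does not measure how a ratio varies between cows. Among the 20 members with at least 2 measured probes, the median SD between probes was 0.21, beside 0.17 over all such genes, and it was over 0.5 for INHA, TGFB3, INHBA and BMPR1B. The SDs of ID2 and LTBP2 were 0.40 and 0.14, and that of INHA was 1.42 with both of its probes higher in the dark cow. TGFB3's SD of 1.01 came with a dimmest probe at -0.13. When all measured probes with a symbol were split by mean level into 4 bins of near equal size, 24 member probes lay in the dimmest bin, 15 and 18 in the middle bins and 5 in the brightest. Of the 7 member probes at least 2-fold lower, 0 lay in the dimmest bin, whereas 2 of the 4 higher ones (of GDF10 and BMPR1B) did. Over all probes the share at least 2-fold higher was 9.10% in the dimmest and 11.8% in the brightest bin, and the share at least 2-fold lower was 6.68% and 5.20%.

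Further genes of the pathway that were outside the list were read in the same way. Of 102 such genes, 51 had a ratio or bound, of which 6 were at least 2-fold higher (11.8%, against 9.86% of all genes) and 3 at least 2-fold lower (5.88%, against 6.47%), with a median of 0.09. Among 4 other ligands, MSTN, or myostatin, the inhibitor of muscle growth, had a ratio of 4.60 on its single probe (24.3-fold higher in the dark cow, from a level of -5.15 to one of -0.55 on the log2 scale). BMP15, an oocyte ligand, had a bound of 1.27. AMH, the anti-Müllerian hormone, had a ratio of -0.45, and GDF9, another oocyte ligand, a bound of -0.79, that is, of 1.73-fold lower in the dark cow. The endothelial receptors ACVRL1 and ENG had ratios of 0.32 and 0.11.

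Among 5 other antagonists, the chordin-like CHRDL2 was higher, with a gene ratio of 2.63 (probes at 1.60 and 3.65). WFIKKN2, which binds myostatin, had a ratio of 0.30. The sclerostin-family BMP antagonists SOST and SOSTDC1 had ratios of -0.31 and -0.37. Of 6 genes that act on latent TGF-beta or hold it, the integrin subunit ITGB6, which helps to activate it, had a ratio of 1.46, and the microfibril protein FBN1 a ratio of 1.09, each on 1 probe. THBS1, or thrombospondin 1, another activator, had a ratio of -1.72 over 6 probes that ranged from -2.41 to -0.10. DCN, or decorin, a proteoglycan that binds TGF-beta, had a ratio of -0.33 over 9 probes. None of 11 other intracellular regulators passed 2-fold, beside 9.86% of all genes higher and 6.47% lower. They ranged from 0.75 for the receptor-associated STRAP and 0.51 for FKBP1A to -0.51 for TAB1 and -0.66 for the TGF-beta-induced inhibitor PMEPA1.

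Known targets of TGF-beta and of BMPs were read next. Of 15 TGF-beta target genes with a ratio, 9 lay above 0, with a median of 0.09, beside 0.065 over all genes, most of which lay above 0. At least 2-fold higher were 0, against 9.86% of all genes, and at least 2-fold lower were 2 (13.3%, against 6.47%). CCN2, or connective tissue growth factor, had a ratio of -1.29 (SD between probes 0.20, n = 2 probes), and POSTN, the matrix protein periostin, one of -1.41 (SD 0.11, n = 3 probes). FN1, or fibronectin, had a ratio of 0.88 over 13 probes (SD 0.16), and the cell cycle inhibitor CDKN1A one of 0.66. Of 8 BMP target genes, the transcription factor GATA3 alone was at least 2-fold higher (12.5%, against 9.86%), with a ratio of 1.20 over probes at 0.63 and 1.77. At least 2-fold lower were 0, against 6.47% of all genes. Above 0 were 2 of the 8, GATA3 and HEY1 (0.43), and the median was -0.50, beside 0.065 over all genes. The lowest of these were the homeobox gene MSX1 at -0.87, with probes at -0.89 and -0.86, and the iron hormone HAMP at -0.88. The target lists were drawn from general knowledge of many tissues.

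**Figure D4:**
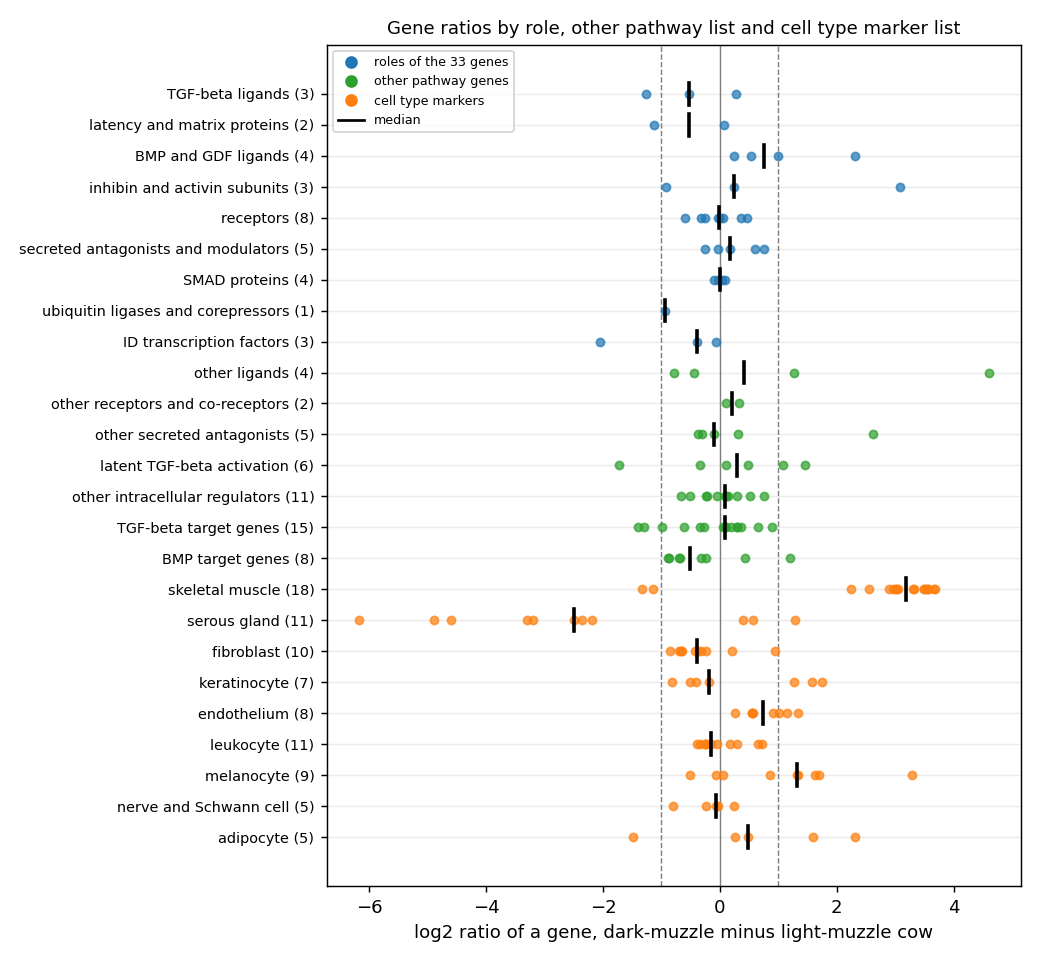
Log2 ratio (dark minus light cow) of each gene on the horizontal axis, by role of the 33 members (blue), list of other pathway genes (green) and cell type marker list (orange), with the number of genes in brackets, medians as black bars and dashed lines at 2-fold. The 4 SMAD proteins among the members lie between -0.11 and 0.09, while the medians of skeletal muscle markers (3.18) and serous gland markers (-2.50) lie far from 0.

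The labelled tissue was read against cell type markers. These lists were chosen with earlier results of these data known, so their differences are a description and not a test. Muscle and gland lists differed far more between the cows than the pathway did. Over all genes, 9.86% were at least 2-fold higher and 6.47% at least 2-fold lower. All 7 keratinocyte markers on the arrays were well above background in both cows, as were all 10 fibroblast markers. Skeletal muscle markers had the median furthest from 0, whereas the summed level differed more for gland markers. Such a sum rests on its brightest probes, for the gland on PIP with a log2 level of 7.39 in the light cow. Of the muscle markers, 16 of 18 were at least 2-fold higher and 2 lower in the dark cow, the median ratio was 3.18, and the log2 of their summed level was 7.54 in the light and 10.4 in the dark cow. Serous gland markers were lower, 8 of 11 by at least 2-fold with 1 higher, the median was -2.50, and the log2 of the sum was 8.13 and 4.21. Among 12 gland genes on the arrays 1 was well above background in neither cow, and all 18 muscle genes were well above it in both. Melanocyte markers were at least 2-fold higher for 5 of 9, of which 2 (TYRP1 and EDNRB) were lower bounds alone. The median of 1.31 was the bound of EDNRB. Within 2-fold were MITF (0.86), MC1R (0.05), KIT (-0.07) and DCT (-0.52). In the light cow 2 of the 9 were not well above background, and in the dark cow all were.

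The medians of the other cell types were smaller in size, although some of these lists held several genes past 2-fold. The shares over all genes were again 9.86% higher and 6.47% lower. Endothelial markers had a median of 0.74, with 3 of 8 at least 2-fold higher. Adipocyte markers had a median of 0.48, with 2 of 5 higher (1 of these, LEP, by a bound alone) and 1 lower. Keratinocyte markers had a median of -0.18, with 3 of 7 higher, fibroblast markers one of -0.39 with 0 of 10 past 2-fold, leukocyte markers one of -0.15 and nerve markers one of -0.07, both with none past 2-fold. The ratios of INHA, GDF10, MSTN, ID2, TGFB3 and LTBP2 stood beside these differences in the same pieces of tissue. Their part in the result was not tested.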

How the data were processed

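Total RNA of 1 light-muzzle and 1 dark-muzzle cow was measured on 2 Agilent 1-colour bovine arrays. The authors deposited the output of Agilent Feature Extraction 10.7.3.1 (version from the submitters' processing notes), whose processed signal gives each spot's intensity after background subtraction. A table of log2 values that the authors made in GeneSpring and deposited equalled the levels computed here within a median of 0.00017 (light) and 0.00021 (dark) and at most 0.12 and 0.17. Its column medians were -2.47 and -2.45, and its scale was thus the same 75th percentile shift. It was used as an alternative only.

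From the intensities of 43803 noncontrol spots, log2 levels minus each array's 75th percentile were computed, 13 outlier spots per array were dropped and repeat spots were averaged, giving 43639 probes. The scanner files used here hold no gene name, so 20587 probes (47.2%) took a symbol by RefSeq accession from the table of the ARS-UCD2.0 assembly. The array design names another build, so no coordinate is given, and no probe, promoter or protein sequence was used here. A gene's ratio was the mean of its probes well above background in both cows or, with none, its largest lower bound. In all, 8914 genes had a value, 8508 of them measured.

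The members, roles and further lists were chosen with earlier results of these data known. Named genes were all members, with both levels for those with a probe or gene value at least 2-fold apart, and the 2 highest and 2 lowest of each further pathway list. SMAD9 was named in addition, beside the other SMAD proteins. Other levels were printed where they add to a description. Alternatives were quantile, loess (span 0.3) and 50th percentile normalization, no shift, normexp background correction (offset 50, on the median pixel signal, as the files used here hold no mean), other treatments of dim probes, outlier spots kept, the authors' table, other summaries of a gene's probes and thresholds of 1.5-fold and 3-fold. Python 3.11.15, numpy 2.4.6, pandas 2.3.3, matplotlib 3.10.9, R 4.3.3 and limma 3.58.1 were used. The steps were tested on simulated data with large changes and less noise than the real spots, in genes measured in both cows. That test checks the code and not the precision of a ratio or a bound. The number of arrays limits the precision. The real-time PCR and in situ hybridization of the study were not analysed here.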

Additional observations from a re-analysis of the deposited data

How the results depend on the processing

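The counts of members past 2-fold moved by over 1.5 times under few settings. Without a filter on dim probes, 1 gene was higher in place of 2, because GDF10 (0.997 there) averaged in its dim probe, and 7 probes were higher in place of 4. Of all genes, 12.2% were higher without this filter. At 1.5-fold, 5 genes were higher and 6 lower, beside 19.8% and 13.6% of all genes, and 9 probes were higher. At 3-fold, 1 gene was lower (ID2), beside 3.03% of all genes, and 3 probes were lower. Shares over all probes were not computed for these settings. The other counts and the median, which stayed between -0.03 and 0.02, changed by less. Under the 13 alternatives that give gene values, INHA (2.62 to 4.08), ID2 (-2.33 to -1.76) and TGFB3 (-2.06 to -1.06) were past 2-fold in all. GDF10 and LTBP2 were past it in 12. GDF10 fell under it without the filter on dim probes (0.997) and was 1.20 under normexp. LTBP2 fell under it with normexp (-0.97). Under every alternative that gave a gene a value (12 for GDF6 and BMPER, 11 for INHBB and 13 for the others), the sign was the same for 27 of the 33 genes. TGFBR2, BMPR1B, ACVR2B, FSTL3, SMAD2 and SMAD4 changed it under at least 1, and of these BMPR1B had the largest ratio, 0.46. Part of this agreement was fixed in advance. An upward bound was kept only if above 0, and the summaries of a gene's probes return the same value for a gene with 1 measured probe. The authors' table also has the same shift as the main setting, so the count does not measure how firmly a sign is known. Under normexp 2 members were at least 2-fold higher and 2 lower, beside 7.13% and 4.16% of all genes. Taking symbols only by RefSeq accession was the main setting already and was not run again. No paired analysis was possible because each colour had 1 array, and for the same reason no array could be left out. GDF6, BMPER and INHBB are known only as bounds, since signal over background limits them, and these bounds moved or were lost under other settings.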
